A study of Sus scrofa with 12 samples.

Results

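Meiotic recombination genes make and repair the programmed DNA breaks by which homologous chromosomes pair and exchange segments. SPO11 cuts both DNA strands, at sites that PRDM9 marks in many mammals. The recombinase DMC1 coats the resected ends and drives their invasion of the homologous chromosome, and MEIOB and SPATA22 form a complex that binds the exposed single-stranded DNA. MSH4 and MSH5 form a clamp on the joined molecules, and with the helicase HFM1 and with MLH3 they carry some of these molecules on to crossovers. In the testis these genes act mainly in spermatocytes, the cells that enter meiosis as boars approach puberty.

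The genes described here are the rows of the coding-gene table whose symbol is on a list of 9 recombination genes. Of its 21674 rows, 7 matched, namely SPO11, DMC1, MEIOB, SPATA22, MSH4, MSH5 and HFM1. MLH3 and PRDM9 were not analysed here.

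Testis RNA was sequenced from 12 boars of the Hezuo (HZ) and Landrace (LC) breeds, castrated at 30 or 120 days of age. The groups were 30-day-old HZ (Ha), 120-day-old HZ (Hb), 30-day-old LC (La) and 120-day-old LC (Lb) boars, with 3 separate boars in each. The ages were compared within each breed and the breeds at each age. Estimated counts on coding genes summed to between 17165519 in Hb3 and 23758931 in Ha1, where the digit after a group name is the replicate number. Levels are given as CPM, the counts of a gene relative to its library's total scaled by TMM, or as FPKM, which also divides by transcript length and serves to compare genes with each other.

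Spermatocyte and spermatid markers had low summed levels in every 30-day-old library and high ones at 120 days. The CPM of 10 spermatocyte markers other than the 7 genes summed to 32.6, 37.8 and 23.1 in Ha1 to Ha3 and to 17.5, 14.7 and 12.8 in La1 to La3. At 120 days the sums were 2467, 1743 and 2416 in Hb and 1732, 1494 and 1304 in Lb, with PGK2 the most abundant gene (947 CPM in Hb, 607 CPM in Lb). Of the 10 spermatocyte markers 9 were called higher with age in each breed, while OVOL2 was called lower, at -1.17 ± 0.43 (SE) in HZ and -1.75 ± 0.45 in LC (edgeR adjusted p = 0.041 and 0.0078). The 10 spermatid markers summed to 6848 ± 1253 CPM in Hb and 3600 ± 535 CPM in Lb (SD, n = 3), led by PRM1 in both, and to no more than 8.87 CPM in any 30-day-old library. PIWIL1 led the spermatocyte markers at 30 days, at 8.0 CPM in Ha and 3.46 CPM in La. No marker of any list was at 0 in all 3 libraries of a group. The 11 spermatogonia markers were present at both ages, at 346 ± 35.8 CPM in Ha, 225 ± 4.62 in La, 831 ± 22.3 in Hb and 665 ± 32.1 in Lb (SD, n = 3), led by ZBTB16 at 30 days and DDX4 at 120 days. DDX4 made up 570 CPM of the sum in Hb and 391 CPM in Lb, and more spermatogonia markers were called lower than higher with age, 6 against 3 of 11 in HZ and 5 against 4 of 11 in LC, with medians of -1.01 and -0.53. In whole testis RNA, fewer cells of a type and less RNA per cell cannot be told apart.

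Markers of somatic cells had lower summed levels at 120 days. Sertoli cell markers summed to 1381 CPM in Ha, 2923 in La, 484 in Hb and 666 in Lb, and peritubular and stromal markers to 4609, 6900, 406 and 2887 CPM in the same order, led in every group by COL3A1. Not every marker was lower, as ACTA2 was called higher with age in LC (1.42 ± 0.18 SE, edgeR adjusted p = 0.00014). Endothelial markers summed to 655, 726, 221 and 364 CPM and were led by VWF. Macrophage markers summed to 110.5, 115, 16.1 and 31.7 CPM, led by CD163 in Ha and CSF1R elsewhere. The part of these cell markers in the differences given here was not tested.

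Some libraries stood apart from their groups. In Hb1 the Leydig cell markers summed to 4066 CPM, against 331 in Hb2 and 268 in Hb3, while the Lb libraries held 4922, 7417 and 3086 and the 30-day-old libraries between 8750 and 13676. Ha3 was the lowest of the 3 Ha libraries for 29 of the 45 recombination genes tested at 30 days (64.4%, the 7 genes and the further lists below), whereas it was lowest for 37.7% of all 15648 genes tested. Lb2 was the lowest Lb library for each of the 7 genes and for 24 of the 49 recombination genes tested at 120 days (49.0%, beside 32.7% of all genes tested). La2 was the lowest La library for 21 of the 45 recombination genes tested at 30 days (46.7%, beside 33.65% of all genes tested). Across genes, log2 CPM of Ha3 correlated with Ha1 and Ha2 at r = 0.976 each and with the La libraries at 0.962 to 0.964, while Ha1 and Ha2 correlated with each other at 0.982 and with La at 0.953 to 0.955. Genes are not independent replicates, so these coefficients only describe the libraries. Values that changed most without Ha3 or Hb1 are also given without them, and those without Lb2 at 120 days.

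**Figure D1:**
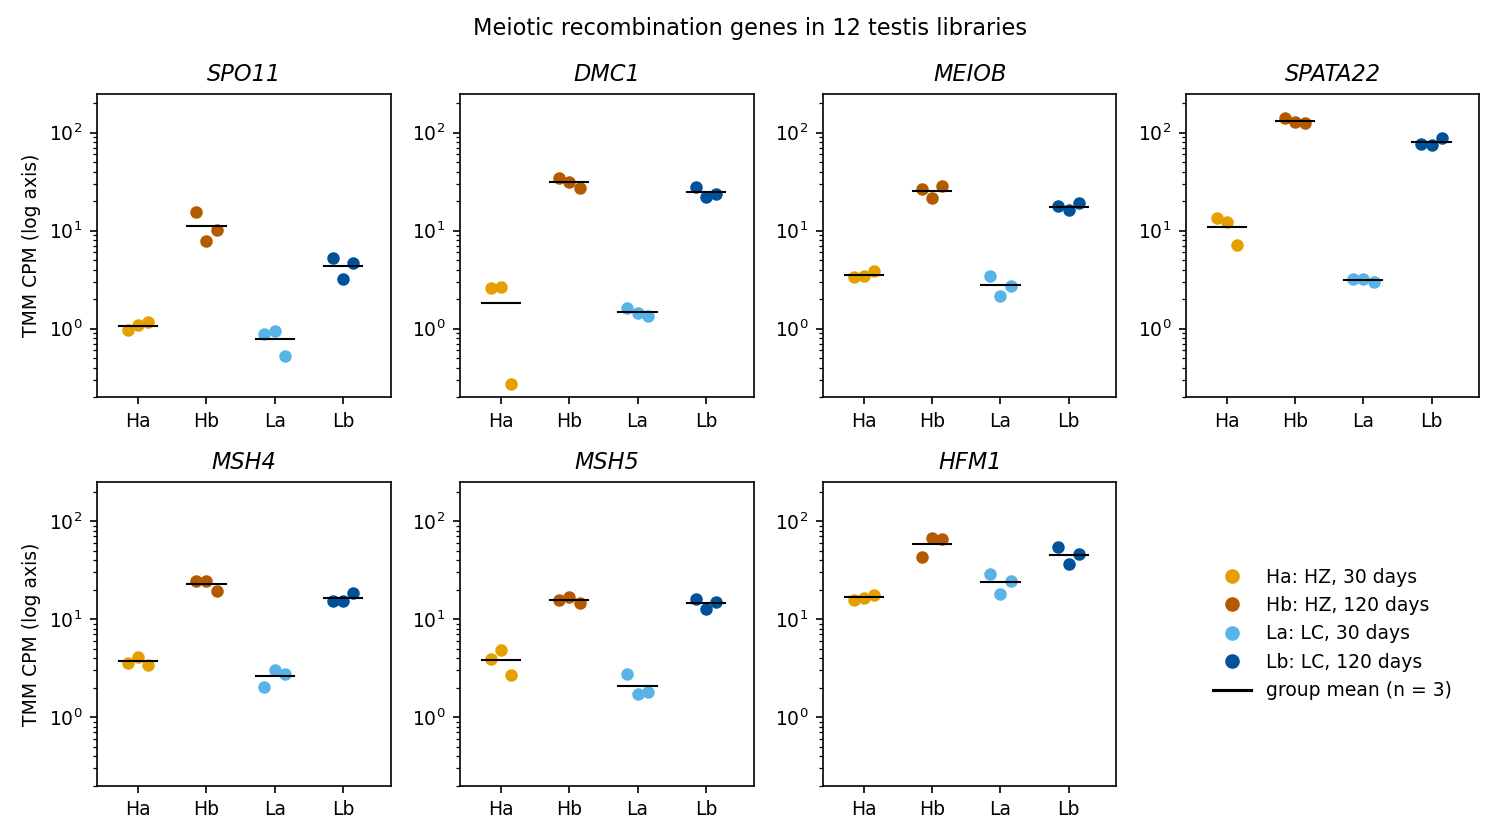
Level in TMM-scaled CPM (log axis) of the 7 genes in each of the 12 libraries. Points are single boars and the bar is the mean of 3. Every 120-day-old library lies above every 30-day-old library of the same breed, and in DMC1 the third Ha library, at 0.27 CPM, lies far below 2.61 and 2.65 CPM in the others. The share of all genes with such a separation by age was not computed.

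Compared per length, SPATA22 was the most abundant of the 7 genes in every group but La. At 120 days it reached 55.6 ± 2.94 FPKM in Hb and 35.7 ± 5.04 FPKM in Lb (SD, n = 3), higher than 95.4% and 92.1% of coding rows by group mean. In Hb the order was then DMC1 (8.54 FPKM), MEIOB (7.89), HFM1 (6.94), SPO11 (4.54), MSH4 (3.60) and MSH5 (3.46). Only SPATA22 was separate there, since each later neighbour in that order overlapped the next in range. In Lb the order was SPATA22, DMC1 (7.60 FPKM), MEIOB (6.09), HFM1 (6.04), MSH5 (3.56), MSH4 (2.90) and SPO11 (2.03). In that group SPATA22 stood above the rest, DMC1, MEIOB and HFM1 overlapped along the order, MSH5 and MSH4 overlapped, and SPO11 lay below them all.

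At 30 days the order differed. In Ha, SPATA22 (5.74 FPKM), HFM1 (2.73) and MEIOB (1.65) each stood apart from the next, while MSH5 (1.17), MSH4 (0.82), DMC1 (0.72) and SPO11 (0.62) overlapped along the order. In La, HFM1 led with 3.87 ± 0.924 FPKM (SD, n = 3), followed by SPATA22 (1.51) and MEIOB (1.28), which overlapped. MSH5 (0.63), DMC1 (0.58), MSH4 (0.57) and SPO11 (0.42) came last in La and overlapped along the order.

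The partners of known complexes were also set side by side as ratios of FPKM within a library. SPATA22 over MEIOB was between 5.57 and 7.99 in the 6 libraries at 120 days, 4.53, 4.14 and 2.01 in Ha1 to Ha3 and 0.884, 1.58 and 1.26 in La1 to La3. The partners were thus closest in La, and no La library overlapped those of the other groups. MSH4 over MSH5 stayed between 0.530 and 1.29 in all 12 libraries.

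The comparison of ages asked which genes change as the testis matures. Between 30 and 120 days all 7 genes were called higher in HZ and 6 of 7 in LC, where called means an adjusted p under 0.05 in edgeR's quasi-likelihood test over all genes and an absolute log2 fold change over 1. Of all genes tested, 28.2% were called higher with age in HZ and 27.5% in LC. An unadjusted edgeR p under 0.05 was found for 11897 of 16548 genes in HZ and 12065 of 16637 in LC. How many of all genes had ages without overlap was not counted. The median log2 fold change of the 7 genes was 2.84 in HZ and 2.67 in LC, beside -0.02 and 0.01 over all genes. All 7 passed the filter on low counts in every comparison. Scaled by upper quartile or library size alone, the median of all genes shifted by -0.32 and -0.30 in HZ and by -0.26 and -0.17 in LC, and the number of the 7 called higher was the same under both.

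SPO11, which makes the breaks, measured 0.96, 1.08 and 1.16 CPM in Ha1 to Ha3 and 15.6, 7.80 and 10.02 CPM in Hb1 to Hb3. Its La values were 0.89, 0.95 and 0.52 CPM, and its Lb values 5.23, 3.20 and 4.72 CPM. The ages did not overlap in either breed, and Hb1 held the highest value of all libraries. SPO11 rose by a log2 fold change of 3.38 ± 0.35 (SE) in HZ (10.4-fold, edgeR adjusted p = 0.00013) and 2.49 ± 0.37 in LC (5.64-fold, adjusted p = 0.00037), and without Hb1 the HZ value was 3.06.

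DMC1, the meiotic recombinase, measured 2.61, 2.65 and 0.27 CPM in Ha1 to Ha3, which are 68, 66 and 7 counts. It reached 34.7, 31.3 and 26.9 CPM in Hb1 to Hb3, 1.61, 1.46 and 1.35 CPM in La1 to La3 and 28.0, 22.2 and 23.7 CPM in Lb1 to Lb3. Ha3 was the lowest library by far, and the ages were well separated in both breeds. The log2 fold change with age was 4.07 ± 0.66 (SE) in HZ (edgeR adjusted p = 0.0012), or 3.55 without Ha3, and 4.07 ± 0.20 in LC (adjusted p = 6.1e-07).

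MEIOB and SPATA22, which bind single-stranded DNA together, rose by unlike amounts. MEIOB measured 3.38 to 3.84 CPM in Ha, 21.4 to 28.3 in Hb, 2.16 to 3.48 in La and 16.2 to 18.9 in Lb. Its log2 fold change was 2.84 ± 0.20 (SE) in HZ and 2.67 ± 0.23 in LC (edgeR adjusted p = 2.1e-05 and 1.6e-05). SPATA22 measured 13.3, 12.3 and 7.07 CPM in Ha1 to Ha3 and 3.22, 3.22 and 2.98 CPM in La1 to La3. At 120 days it reached 139.5, 129 and 126 CPM in Hb1 to Hb3 and 77.0, 74.2 and 89.0 CPM in Lb1 to Lb3. Each breed's libraries were thus separate from the other breed's at both ages, with HZ the higher. SPATA22 rose by 3.60 ± 0.25 on the log2 scale in HZ (12.1-fold, edgeR adjusted p = 2.1e-05) and by 4.69 ± 0.15 in LC (25.8-fold, adjusted p = 8.3e-08), the largest change of the 7 genes in LC.

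The clamp subunits MSH4 and MSH5 rose in both breeds as well. MSH4 measured 3.42 to 4.14 CPM in Ha, 19.4 to 24.7 in Hb, 2.04 to 3.06 in La and 15.1 to 18.5 in Lb, with log2 fold changes of 2.62 ± 0.20 (SE) in HZ and 2.66 ± 0.23 in LC (edgeR adjusted p = 3e-05 and 1.7e-05). MSH5 measured 2.72 to 4.86 CPM in Ha, 14.5 to 16.7 in Hb, 1.71 to 2.76 in La and 12.6 to 16.0 in Lb, with 2.03 ± 0.26 in HZ and 2.81 ± 0.26 in LC (adjusted p = 0.00034 and 2.3e-05).

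HFM1, the helicase, changed least. It measured 15.8, 16.3 and 17.8 CPM in Ha1 to Ha3, 42.6, 66.5 and 65.2 in Hb1 to Hb3, 29.1, 17.8 and 24.6 in La1 to La3 and 53.7, 36.2 and 46.6 in Lb1 to Lb3. HFM1 was already above 15 CPM in every 30-day-old library, and each La library lay above each Ha library, La2 only just. It rose by 1.80 ± 0.20 (SE) on the log2 scale in HZ (3.49-fold, edgeR adjusted p = 0.00019). In LC the value of 0.95 ± 0.22 had an adjusted p of 0.0042 but missed the fold threshold, which it passed without La1 (1.11) or Lb2 (1.09).

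**Figure D2:**
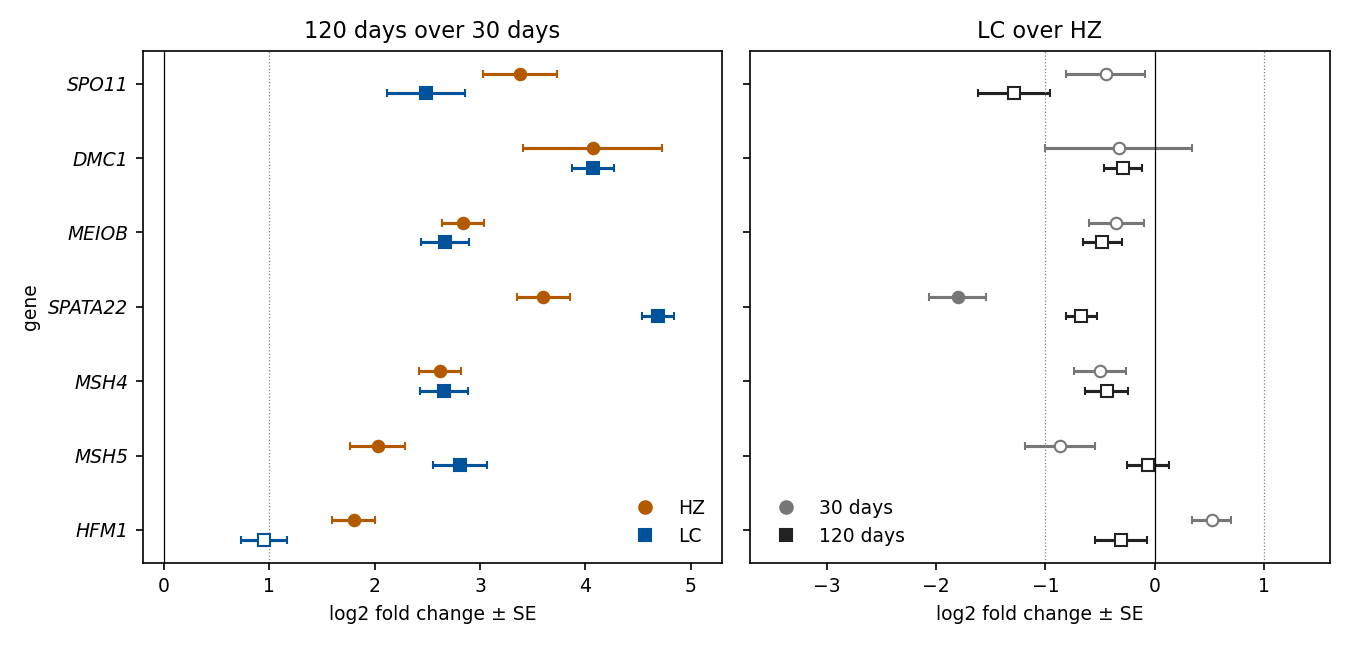
Log2 fold changes (± SE, 6 libraries a comparison) of the 7 genes with age in each breed (left) and between breeds at each age (right). Filled points are called, and dotted lines mark the fold threshold. Values with age run from 0.95 for HFM1 in LC to 4.69 for SPATA22 in LC, and SPATA22 at 30 days is the only breed difference called.

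At 30 days SPATA22 was lower in LC than in HZ and the other 6 genes passed no threshold. SPATA22 differed by -1.80 ± 0.26 (SE) on the log2 scale (3.47-fold lower in LC, edgeR adjusted p = 0.0043), or -2.03 without Ha3. Across all genes tested in Ha vs La, 4.01% were called lower in LC. Of the 7 genes, 6 had a log2 fold change below 0 (median -0.45, beside 0 over all genes). All LC libraries lay below all HZ libraries for 3 of 7, namely SPO11, SPATA22 and MSH4, beside 21.6% of all genes tested.

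Other values at 30 days were less certain. MSH5 differed by -0.87 ± 0.32 (SE, edgeR adjusted p = 0.085), and without Ha3 by -1.07 with an adjusted p of 0.041, which passed both thresholds. For DMC1 the value of -0.33 ± 0.67 (adjusted p = 0.76) turned on Ha3. It was -0.84 without that library (adjusted p = 0.063), while it was 0.01 without Ha1 and 0.02 without Ha2. HFM1 was the exception in direction, at 0.52 ± 0.18 (adjusted p = 0.075). The values of SPO11, MEIOB and MSH4 were -0.45 ± 0.36, -0.35 ± 0.25 and -0.50 ± 0.24.

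Markers of other cells also differed between breeds at 30 days. Of 9 spermatocyte markers tested in Ha vs La, 4 were called lower in LC (SYCP1, SYCP2, HORMAD1 and PIWIL1) and none higher, with a median of -1.21 (-0.93 without Ha3, again with 4 called lower). Of 10 spermatogonia markers tested, DAZL was called lower in LC (-1.66 ± 0.22 SE, edgeR adjusted p = 0.003) and the median was -0.55. The spermatid markers went the other way in their median, 0.73 over the 5 tested, of which 1 was below 0, none was called in edgeR, DESeq2 or limma and 0 had an unadjusted p under 0.05. Of 8 Sertoli cell markers, AMH, FSHR and INHA were called higher in LC, as was HSD17B3 of 7 Leydig cell markers (1.15 ± 0.14 SE, adjusted p = 0.0023), where 564 of all 15648 genes tested were called higher. At an unadjusted p under 0.05 there were 6 of 7 Leydig cell and 8 of 10 peritubular and stromal markers. Over all 15648 genes tested 5703 had such a p. None of the 10 peritubular and stromal markers was called in edgeR, DESeq2 or limma. Without Ha3 edgeR called 1 of them, and 2 of the 7 Leydig cell markers, higher in LC. The values of both lists went both ways, with medians of 0.55 (Leydig cell) and 0.46 (peritubular and stromal). Below 0 were 3 of 7 Leydig cell markers (STAR, CYP11A1 and HSD3B1). So were 2 of 10 peritubular and stromal markers, ACTA2 (-0.62 ± 0.10 SE, edgeR adjusted p = 0.0063) and MYH11. The others were above 0, among them COL1A2, DCN and COL3A1 (0.74, 0.66 and 0.61, edgeR adjusted p = 0.0078, 0.0059 and 0.0074). LHCGR had 0.93 (edgeR adjusted p = 0.012). Their part in the SPATA22 difference was not tested.

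At 120 days none of the 7 genes was called between breeds in edgeR, although 3 had an unadjusted p under 0.05 and DESeq2 called 1, SPO11, while limma on FPKM called 0. In that comparison 1.2% of all genes tested were called lower in LC, and 4153 of all 16311 had an unadjusted p under 0.05. SPO11 differed by -1.29 ± 0.33 (SE, 2.44-fold lower in LC) with an edgeR adjusted p of 0.062, which was 0.039 without Hb2 and 0.13 without Hb1, whose value was -0.99. SPATA22 differed by -0.67 ± 0.14 with an adjusted p of 0.035, short of the fold threshold, and its adjusted p was 0.073, 0.1, 0.12, 0.13 and 0.08 without Hb1, Hb3, Lb1, Lb2 and Lb3. All 7 genes had a log2 fold change below 0, with a median of -0.44 beside 0 over all genes. Between them they ranged from -0.06 ± 0.19 for MSH5, whose sign turned in other settings, to the value of SPO11. Without Lb2, the lowest Lb library for all 7 genes, SPO11 had -1.10 (adjusted p = 0.17), SPATA22 -0.60 and MSH5 0.04, and the number of all genes called between breeds went from 628 to 97. That number was also below 628 without Hb3, Lb1 and Lb3, at 119, 182 and 139, and was 622 without Hb1 and 1029 without Hb2. Every LC library lay below every HZ library for SPO11, MEIOB, SPATA22 and MSH4, which is 4 of 7, beside 16.3% of all genes tested.

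Levels relative to the spermatocyte markers were compared at 120 days, as log2 CPM of a gene minus the mean log2 CPM of the 10 markers. That mean was itself lower in Lb than in Hb by a difference of -0.30. The 10 markers include OVOL2, which was not tested between breeds at this age and was called lower with age. Values without OVOL2 are not given here. SPO11 stood at -1.36, -2.30 and -2.20 relative to the markers in Hb1 to Hb3 and at -2.82, -3.29 and -2.73 in Lb1 to Lb3. It was the only gene of the 7 whose breeds stayed separate on this scale, with means of -1.96 ± 0.52 in Hb and -2.95 ± 0.30 in Lb (SD, n = 3). The share of all genes separate on this scale was not computed. On plain CPM every LC library lay below every HZ library for 16.3% of all genes tested. For the other 6 genes the ranges overlapped and the difference of Lb minus Hb lay between -0.41 for SPATA22 and 0.19 for MSH5.

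Markers of other cell types also differed between breeds at this age. Of 10 spermatid markers, AKAP4 was called lower in LC and none higher, all had values below 0, and the median was -0.80. Of 9 spermatocyte markers tested, none was called in edgeR, DESeq2 or limma, 3 had an unadjusted p under 0.05, and the median was -0.39. Over all 16311 genes tested 4153 had an unadjusted p under 0.05. Of 10 peritubular and stromal markers, 5 were called higher in LC, as were PECAM1 of 5 endothelial and AIF1 of 5 macrophage markers, where 432 of all 16311 genes tested were called higher. All 8 Sertoli cell markers had values above 0, with a median of 0.51, of which edgeR and limma on log2 FPKM plus 1 called 0, DESeq2 1 and limma on log2 FPKM plus 0.1 2, and 3 had an unadjusted p under 0.05. Of 7 Leydig cell markers none was called in edgeR or DESeq2 and 1 in limma on log2 FPKM plus 1, while 3 had an unadjusted p under 0.05 and the median was 1.95. Without Hb1 5 of the 7 Leydig cell markers were called higher in LC, with a median of 4.08, no endothelial marker was called, and 2 spermatid markers were called lower. The part of these markers in the SPO11 values was not tested.

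Whether the change with age differed between breeds was tested as an interaction over all 12 libraries. It was positive where LC rose more or fell less than HZ. It was called for SPATA22, at 1.08 ± 0.28 (SE, edgeR adjusted p = 0.04), beside 5.14% of all genes tested that were called in either direction. Without Ha3 the value was 1.35 (adjusted p = 0.0023) and without Hb1 1.15 (adjusted p = 0.044). It fell short of the threshold on leaving out Ha1, Ha2, Hb3 or any La or Lb library, with adjusted p between 0.061 and 0.093 and values between 0.96 and 1.14. The SPATA22 call was also lost with a replicate block and with limma on log2 FPKM plus 1. For the other 6 genes the interaction was not called. HFM1 and SPO11 had -0.87 ± 0.31 (adjusted p = 0.11) and -0.90 ± 0.48 (adjusted p = 0.28), MSH5 had 0.76 ± 0.35 (adjusted p = 0.21), and MEIOB, MSH4 and DMC1 had -0.18 ± 0.28, 0.02 ± 0.26 and -0.01 ± 0.80. Without Hb1 the SPO11 value was -0.54 (adjusted p = 0.52). The DMC1 value turned sign in several settings and was 0.54 without Ha3. Scaled by library size alone, the median interaction of all genes shifted by 0.15, and SPATA22 had 1.24.

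Cell markers also had interactions. Of 10 spermatocyte markers none was called in edgeR or limma and 1 in DESeq2, while 5 had an unadjusted p under 0.05 and the median was 0.74. Over all 17332 genes tested 890 were called in edgeR and 4180 had an unadjusted p under 0.05. The spermatogonia markers DAZL (1.53 ± 0.27 SE) and KIT (1.3 ± 0.34) were called positive, 2 of 11 (edgeR adjusted p = 0.01 and 0.041). So were 5 of 10 peritubular and stromal markers, PECAM1 of 5 endothelial and AIF1 of 5 macrophage markers, while PRM1 and ACRV1 of 10 spermatid markers were called negative. Of those called positive, COL3A1, PDGFRB, PECAM1 and AIF1 were called lower with age in both breeds. COL1A1, COL1A2 and KIT were called lower with age in HZ alone. ACTA2 was called lower in HZ and higher in LC, and DAZL higher in LC alone. The part of these markers in the SPATA22 interaction was not tested.

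Further genes of the pathway were taken from 4 lists of 47 genes, of which 44 had a row. With age, 24 of the 42 tested were called higher and 1 lower in HZ, while LC had 26 of 42 higher and 1 lower, and the medians were 1.24 and 1.54. Of all genes tested, 28.2% were called higher and 23.2% lower in HZ, and 27.5% higher and 20.1% lower in LC. The genes called lower were RPA1, a subunit of the general single-strand binding complex, in HZ (-1.31 ± 0.12 SE, edgeR adjusted p = 7.9e-05) and the helicase MCM9 in LC (-1.22 ± 0.18, adjusted p = 0.0004), which was named after its value was seen. CCDC36 and C5H12orf40 were too low to be tested in any comparison.

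Among other break formation genes, 3 of 7 tested were called higher in HZ and 5 of 7 in LC (28.2% and 27.5% of all genes). C2H11orf80, which encodes the SPO11 partner TOP6BL, rose by 2.11 ± 0.28 (SE) in HZ and 2.76 ± 0.21 in LC (edgeR adjusted p = 0.00043 and 7.5e-06). MEI1 rose by 1.90 ± 0.24 in HZ (adjusted p = 0.00037). ANKRD31 had the largest value in LC, 3.65 ± 1.07 (adjusted p = 0.014), on CPM of 0.93, 0 and 0.40 in La1 to La3 and 0.79, 6.54 and 9.75 in Lb1 to Lb3. Its Lb1 value fell within the range of La, and the call was lost without La3 (adjusted p = 0.053) or Lb3 (adjusted p = 0.051). The 0 in La2 allows up to 0.151 CPM, the level of 3 counts, for counting error only.

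Of other strand invasion genes, 7 of 14 were called higher in HZ and 5 of 14 in LC, beside 28.2% and 27.5% of all genes. MCMDC2 rose by 3.59 ± 0.34 (SE) in HZ and 4.50 ± 0.26 in LC, and RAD51AP2 by 3.49 ± 0.68 and 5.36 ± 0.37 (edgeR adjusted p between 1.7e-06 and 0.0028). RAD51AP2 in Ha3 measured 0.19 CPM against 2.34 and 1.73 CPM in Ha1 and Ha2, and its HZ value was 2.97 without Ha3.

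Other crossover genes were called higher in 10 of 14 cases in HZ and 12 of 14 in LC (28.2% and 27.5% of all genes). CNTD1, a cyclin-like protein needed for crossover maturation, measured 0.96, 0.48 and 0.23 CPM in Ha1 to Ha3, 0.25, 0.15 and 0.04 CPM in La1 to La3 and between 19.8 and 35.9 CPM at 120 days. It rose by 5.57 ± 0.50 (SE) in HZ (edgeR adjusted p = 6.9e-05). In LC it had 10 counts over La against 1428 over Lb, a normalized ratio of 157 (95% exact interval from counting 85.2 to 329). RNF212B had 4 counts over La against 184 over Lb, a ratio of 50.7 (interval 19.5 to 188). Fitted values for such low counts depend on the prior count. RNF212B lay above the crossover list's median of 2.07 both as fitted (5.53) and with 3 counts set in each La library (4.47), so that median could not move with it. C1H9orf84, which encodes SHOC1, had 36, 25 and 0 counts in Ha1 to Ha3 and rose by 3.00 ± 1.02 in HZ (adjusted p = 0.031). That call was lost without Ha2 (adjusted p = 0.073), Hb1 (adjusted p = 0.087) or Hb2 (adjusted p = 0.052), and without Ha3 the value was 2.41.

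Of the list of axis and checkpoint genes, 4 of 7 were called higher in each breed, beside 28.2% of all genes in HZ and 27.5% in LC. MAJIN and TERB2, which are telomere proteins rather than axis or checkpoint proteins, were among the 4 in each breed. HORMAD1, an axis protein that is also among the spermatocyte markers, rose by 3.80 ± 0.30 (SE) in HZ and 5.07 ± 0.28 in LC (edgeR adjusted p = 3.7e-05 and 1.2e-06). TERB2 rose by 4.20 ± 0.38 in HZ and MAJIN by 6.0 ± 0.30 in LC (adjusted p = 7.5e-05 and 6.8e-07), both of which tie telomeres to the nuclear envelope. MAJIN in LC started from 8, 3 and 6 counts in La1 to La3.

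The mitotic repair relatives of these genes gave a contrast in counts. Of 17 such genes, 2 were called higher and 1 lower in HZ and 3 higher in LC, with medians of -0.24 and -0.06. The shares of all genes tested were 28.2% higher and 23.2% lower in HZ and 27.5% higher in LC. TOP2A, the topoisomerase of dividing cells, rose by 2.43 ± 0.16 (SE) in HZ and 2.23 ± 0.19 in LC (edgeR adjusted p = 1.9e-05 and 1.4e-05). BLM was called higher in LC and RPA1 lower in HZ.

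At 30 days 6 of 38 further recombination genes tested were called lower in LC and none higher, with a median of -0.44, where 4.01% of all genes tested were called lower. REC114, needed for break formation, measured 10.9, 11.09 and 9.20 CPM in Ha1 to Ha3 and 5.26, 4.87 and 4.05 CPM in La1 to La3. In Hb1 to Hb3 it measured 11.02, 16.0 and 14.1 CPM, so that Ha2 lay just above Hb1 and the other Ha libraries below every Hb library. Between breeds at 30 days it differed by -1.14 ± 0.18 (SE, edgeR adjusted p = 0.0053). PSMC3IP, a cofactor of DMC1, differed by -1.23 ± 0.32 and MCMDC2 by -1.65 ± 0.41 (adjusted p = 0.03 and 0.026). TEX11 and HORMAD1 differed by -1.99 ± 0.48 and -1.69 ± 0.38 (adjusted p = 0.023 and 0.019). MAJIN differed by -2.84 ± 0.60 (adjusted p = 0.015).

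These calls were sensitive to the tool and to single libraries. DESeq2 called 6 lower, limma on log2 FPKM plus 0.1 called 8 and limma on log2 FPKM plus 1 called 0. The count of 6 became 10 without Ha3, and 2, 1, 3, 2 and 1 without Ha1, Ha2, La1, La2 and La3. REC114 was called without each library in turn. None of the 17 mitotic relatives was called in either breed comparison by edgeR, DESeq2 or limma. At 30 days 6 of them had an unadjusted p under 0.05, beside 5703 of all 15648 genes tested. At 120 days there were 4, beside 4153 of all 16311.

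At 120 days only 1 of 42 further recombination genes was called, lower in LC, beside 1.2% of all genes called lower. That gene was BRCA2, which loads recombinases onto DNA. It measured 22.8, 35.7 and 20.5 CPM in Hb1 to Hb3 and 12.2, 12.2 and 10.98 CPM in Lb1 to Lb3, a difference of -1.12 ± 0.26 (SE, edgeR adjusted p = 0.047). The groups did not overlap, yet the call was lost without any of the 6 libraries, with adjusted p between 0.041 and 0.15 and, without Hb2, a value of -0.81. In the interaction BRCA2 had -1.67 ± 0.35 (adjusted p = 0.019), with 1.26 ± 0.26 with age in HZ (adjusted p = 0.004) and -0.39 ± 0.21 in LC (adjusted p = 0.12).

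**Figure D3:**
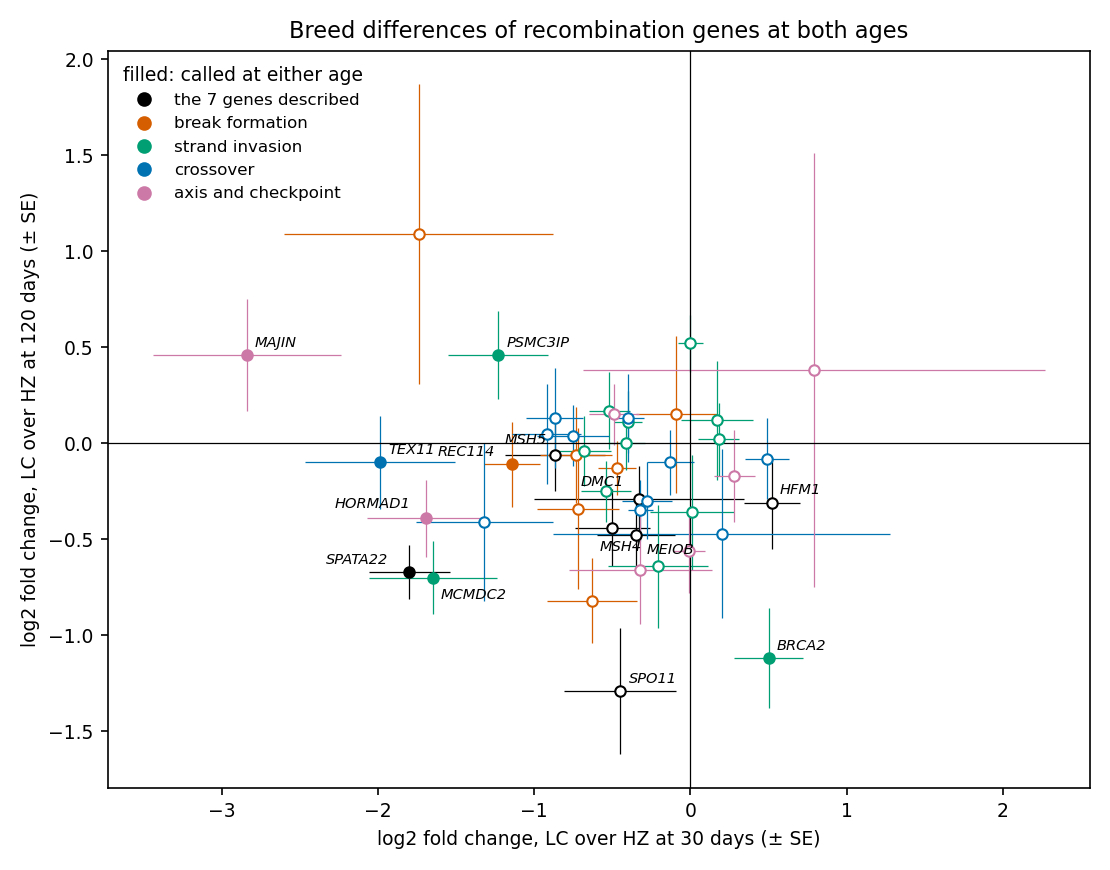
Log2 fold change of LC over HZ at 30 days (horizontal) and at 120 days (vertical), with SE, for the 7 genes and the further recombination genes tested at both ages. Filled points are called at either age. MAJIN lies farthest left at -2.84, and BRCA2 (-1.12) and SPO11 (-1.29) lie lowest at 120 days.

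The genes whose pattern over the 12 libraries was most like each of the 7 were sought among 16530 named coding genes by Pearson's r of log2 CPM. The libraries fall into the 4 groups, so these values mostly reflect the age difference they share and are given as a description. SPO11 was most like HSPBP1 and NME7 (r = 0.987 and 0.986), DMC1 like CFAP74 and CPEB2 (0.992 and 0.987), and MEIOB like C1H9orf50 and LOC110261055 (0.996 each). SPATA22 was most like SPATA2 and RNF17 (0.996 each), MSH4 like CCDC18 and CFAP221 (0.996 and 0.995) and MSH5 like SYCP1, a synaptonemal complex protein, and LOC110256093 (0.995 and 0.993). HFM1 had the least like neighbours, GNL3 and PAX1 (0.968 and 0.966). Among the 7 genes r ran from 0.81 for SPATA22 with HFM1 to 0.98 for SPATA22 with MSH4 and with MSH5, over n = 12 libraries. CFAP74 shared the low Ha3 value of DMC1, with 0.61, 1.25 and 0 CPM in Ha1 to Ha3.

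On the Sscrofa11.1 assembly each of the 7 genes lies on a chromosome of its own. SPO11 spans 57730676 to 57745875 on chromosome 17, DMC1 9431236 to 9470333 on chromosome 5 and MEIOB 40092689 to 40133173 on chromosome 3. SPATA22 spans 49573050 to 49609232 on chromosome 12, MSH4 137410820 to 137524459 on chromosome 6, MSH5 23852864 to 23872760 on chromosome 7 and HFM1 125522300 to 125614296 on chromosome 4. None of the 1424 assembled lncRNAs lay within 10 kb of them. DMC1 overlaps the annotated lncRNA LOC110260646, whose FPKM was at most 0.04 in any library and whose counts summed to 4 over all 12. No other lncRNA of the annotation lay within 10 kb of the 7 genes.

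Protein-coding neighbours within 10 kb were found for 5 of the genes, and none of them overlapped. LOC110256093, annotated as olfactory receptor 1E5-like, ends 262 bases before SPATA22 begins and has the second most like pattern to MSH5. It measured 1.73, 2.05 and 0.93 CPM in Ha1 to Ha3, 9.16, 7.52 and 8.24 in Hb1 to Hb3, 0.93, 0.45 and 0.32 in La1 to La3 and 8.42, 6.17 and 7.49 in Lb1 to Lb3, lower than SPATA22 in each library. LOC110256092 and ASPA lie 8125 and 3613 bases from SPATA22, and with it LOC110256093, LOC110256092 and ASPA had an r of 0.98, 0.94 and 0.52. RAE1 lies 5983 bases from SPO11 and HAGH 5926 bases from MEIOB, with an r of 0.97 and 0.99. RABGGTB lies 604 bases from MSH4 and had an r of -0.44 with it, and CLIC1 and VWA7 lie 1702 and 2140 bases from MSH5 with -0.87 and -0.92 (n = 12 libraries). The strand of these genes was not used here, and whether counting used strand is not given in the sources used here.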

How the data were processed

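The 7 genes were analysed in testis libraries of 12 boars, 3 in each of 4 groups taken from the sample titles. Libraries were strand-specific and depleted of ribosomal RNA, and the authors used fastp 0.18.0, Bowtie2 2.2.8, HISAT2 2.1.0 (Sus scrofa 11.1) and StringTie 1.3.4. The authors deposited estimated counts, not normalized and from a counting tool not given in the sources used here, and FPKM scaled by length and mapped fragments. The deposited exon coordinates of assembled lncRNAs were used for neighbours. All 20666 numbered gene IDs matched the RefSeq table of Sscrofa11.1, the source of gene positions.

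Estimated counts were rounded, filtered (filterByExpr, minimum count 10), scaled by TMM and fitted in R 4.3.3 with edgeR 4.0.16 (quasi-likelihood) on the 6 libraries of a comparison (12 for the interaction), adjusted by Benjamini-Hochberg over all genes. The SE is the absolute log2 fold change over the square root of F. Alternatives used DESeq2 1.42.0, limma 3.58.1 on log2 FPKM plus 1 or 0.1 (mean FPKM over 0.1), other scaling, other filters, one fit of all libraries, a replicate block and each library left out. Log2 CPM used a prior count of 2. The fits were tested on simulated data. Total counts of 17165519 to 23758931 set the precision; intervals and floors of 3 counts cover counting error only.

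The members and lists were chosen with earlier results of these data known. Genes named are the 7 genes, list genes called in a breed comparison or the interaction, those with the largest change at each age comparison (up to 2 a list), and the 2 genes most like each of the 7. Marker genes, RPA1, MCM9, BLM and neighbours were named after their values were seen. Symbols of the table are used where they differ (CCDC36 for IHO1, C5H12orf40 for REDIC1). SWI5, CCNB1IP1 and HORMAD2 were not analysed here.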

Additional observations from a re-analysis of the deposited data

Results flagged for a closer look

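The change with age differed between the breeds, by the test of the interaction over all 12 libraries, for 5 recombination genes. SPATA22 had an interaction of 1.08 on the log2 scale, the only one of the 7 genes described. PSMC3IP, the DMC1 cofactor, had 1.64 ± 0.38 (SE, edgeR adjusted p = 0.027). It rose by 1.52 ± 0.32 in HZ and 3.18 ± 0.21 in LC (adjusted p = 0.004 and 3.4e-06). MAJIN had 3.25 ± 0.66 (adjusted p = 0.017) and rose by 2.74 ± 0.52 in HZ and 6.0 ± 0.30 in LC (adjusted p = 0.0025 and 6.8e-07). RNF212B, a crossover factor, had 3.17 ± 0.83 (adjusted p = 0.042), with 18, 32 and 6 counts in Ha1 to Ha3 but only 2, 1 and 1 in La1 to La3, so its value depends on the prior count. BRCA2 had -1.67 and was the only gene of the 5 with a negative value. SPATA22 was not called without Ha1, Ha2, Hb3 or any La or Lb library (adjusted p 0.061 to 0.093). Nor was it called with a replicate block or with limma on log2 FPKM plus 1. MAJIN was called without each of the 12 libraries in turn. PSMC3IP was not called without Ha1, Ha2, Hb3, La2, La3, Lb2 or Lb3 (adjusted p 0.05 to 0.07), BRCA2 without Ha1 (0.061) or La3 (0.063), and RNF212B without any library other than Ha3 or Hb2 (0.053 to 0.11).

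The count of further recombination genes with such a difference, 4 of 42, became 8 without Ha3, 6 without Hb2 and 3 without Hb1, La1 or Lb1. It was 1 without Ha1 and 2 without Ha2, 1 without La3, and 2 without Hb3, La2, Lb2 or Lb3. Of all genes tested over the 12 libraries 5.14% had such a difference, and that number, 890, ranged from 437 to 1242 with a library left out.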

How the results depend on the processing

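Over the 35 values of the 7 genes, 519 of 560 alternative values kept their direction and their side of the thresholds, 11 lost a call, 6 gained one and 24 turned sign. Of 455 alternative values of other named genes, 386 kept both, 69 lost the call and 0 turned sign. Each of these genes was called in edgeR in its comparison, so none could gain a call. Their tally therefore cannot be set against that of the 7 genes. The alternatives for other recombination genes and marker lists were chosen after seeing the data. Where values moved, the cause was not tested.

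With limma on log2 FPKM plus 1, other recombination genes called higher in Ha vs Hb became 12 (24 in edgeR), coding genes called in Ha vs La 507 (1192), other recombination genes called lower in Ha vs La 0 (6), those called lower in Hb vs Lb 0 (1), the 7 genes in the interaction 0 (1) and other recombination genes there 2 (4). MSH5 in Hb vs Lb became 0.03 and MSH4 in the interaction -0.02. With limma on log2 FPKM plus 0.1, other recombination genes lower in Hb vs Lb became 0, coding genes in the interaction 1360 (890), DMC1 in Ha vs La 0.08 and MSH5 in Hb vs Lb 0.04. DESeq2 called 1153 coding genes in Hb vs Lb (628), 1 of the 7 there (0) and 1363 coding genes in the interaction, where MSH4 had -0.02. With all 12 libraries in one fit, Hb vs Lb had 1258 coding genes and 1 of the 7. With upper-quartile scaling the DMC1 interaction was 0.05. With library size only it was 0.15, MSH5 in Hb vs Lb was 0.01 and other recombination genes called lower there were 0.

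With a replicate block, coding genes called in Hb vs Lb fell to 154, other recombination genes lower there to 0 and the 7 genes called in the interaction to 0, and DMC1 in Ha vs La was 0.03. Libraries with the same replicate number correlated at r of -0.02 to 0.05 over 12 pairs. Between Ha and Hb, 3 libraries correlated best with their own number, and 0 did in each other pair of groups compared.

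Leaving out each library in turn gave 97 (without Lb2) to 1029 (without Hb2) coding genes in Hb vs Lb and 437 to 1242 in the interaction. Of the 7 genes, 1 to 2 were called in Ha vs La, 0 to 1 for Hb vs Lb and 0 to 1 in the interaction. Other recombination genes numbered 1 to 10 in Ha vs La, 0 to 0 in Hb vs Lb and 1 to 8 in the interaction. DMC1 ran from -0.84 to 0.02 in Ha vs La and from -0.35 to 0.54 in the interaction, MSH5 from -0.13 to 0.04 in Hb vs Lb, and in the interaction MEIOB ran from -0.29 to 0.01 and MSH4 from -0.13 to 0.18. The median of spermatogonia markers in Hb vs Lb was 0.18, and -0.05 without Hb1.

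Called genes split differently by scaling. In Ha vs Hb 54.8% of them were higher, against 43.8% with upper-quartile scaling and 44.1% with library size only. In La vs Lb the share was 57.7%, against 47.1% with upper-quartile scaling, and in the interaction 68.4%, against 81.6% with library size only.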

Other observations

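With 3 boars in a group, a call between breeds rested on few libraries, and Ha3 and Hb1 differed from their groups in germ cell and Leydig cell genes. Whole testis RNA mixes cell types, whose markers differed with age and breed, so levels per spermatocyte were not measured. Low counts at 30 days limit precision there, with SPO11 at 13 to 30 counts a library. MLH3 and PRDM9, promoter sequence and protein sequence were not analysed here.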
